A study of Mus musculus with 2 samples.

Results

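Cytosolic ribosomal protein genes encode the protein parts of the ribosome that translates nuclear-encoded mRNAs. Members were chosen by gene symbol: 84 of the 28692 genes in the deposited tables carry a symbol of the form Rps or Rpl followed by the subunit's number or letter, including the paralogs Rps27l, Rpl22l1, Rpl36al, Rpl6l, Rpl10l, Rpl39l and Rpl3l. The pattern leaves out pseudogene symbols, Rpl7l1, Rps27rt, and the subunit gene Fau, whose symbol follows no such form. Of the 84 members, 81 reached 10 CPM (UMIs scaled to a library total of 1000000) in at least 1 library, 32 of the small and 49 of the large subunit. The remaining 3, Rpl10l, Rpl39l and Rpl3l, had 2, 1 and 0 UMIs in the expansion library and 0 each in the induction library, where a count of 0 allows up to 0.326 CPM.

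The data are 2 droplet libraries (10x Genomics Chromium) of primary hepatocytes, the parenchymal cells of the liver, from C57BL/6 mice, grown in 3D in Matrigel. The expansion library came from medium with 3 uM CHIR99021 (a GSK3 inhibitor), 100 ng/mL TNF, 25 ng/mL EGF and 50 ng/mL HGF. The induction library came from medium with 3 uM dexamethasone (a synthetic glucocorticoid) and the same EGF and HGF, with neither CHIR99021 nor TNF. Both media contained 10 uM Y27632 (a ROCK inhibitor), 1 uM A83-01 (a TGF-beta receptor inhibitor), nicotinamide, N-acetylcysteine and the B27 and N2 supplements. Each medium had 1 library, so there is no replicate spread, no test and no p-value. The agents that differ between the media, any other difference between the cultures and the library itself cannot be told apart. The labels do not give the number or sex of the animals. Intervals are 95% and cover counting error only.

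After filtering, 1191 expansion cells (29390000 UMIs, median 23184 per cell) and 1245 induction cells (9201887 UMIs, median 6765 per cell) remained, and the libraries shared 4 cell barcodes. All 10 hepatocyte markers had UMIs in both libraries, at a summed 47207 CPM in expansion and 68484 CPM in induction. The summed markers of macrophages, endothelial cells, stellate cells, lymphocytes, erythroid cells and mesothelium stayed at or below 2.25 CPM in each library. The bile duct list stood at 1426 and 746 CPM, mostly Spp1 (1307 and 661 CPM). Of its 6 genes, 5 had UMIs in each library, and only Krt7 was at 0 UMIs in both. Over 10 CPM were 3 of them in expansion and 2 in induction. Both libraries mixed cells with Xist, the RNA of the inactive X chromosome of females (325 and 412 cells), and cells with Y-linked transcripts (505 and 503 cells). A further 275 expansion and 22 induction cells held both kinds, and 86 and 308 cells held neither. Scrublet, which looks for droplets that hold several cells (doublets), marked only 4 and 2 cells. The source of the cells with both kinds was not tested. Their bearing on the groups with Xist and with Y-linked transcripts, and on the shares per cell and their spread, was not tested either.

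Most ribosomal proteins are present in a single copy per ribosome, and their mRNAs are among the most abundant of a growing cell. Most of these mRNAs begin with a terminal oligopyrimidine (TOP) tract, a cytosine followed by further pyrimidines, through which mTOR signalling and the RNA-binding protein LARP1 control their translation and stability. The liver is a classical tissue for such control, since feeding and growth signals shift ribosome production in hepatocytes.

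RefSeq promoter entries (GRCm38.p6) were found for 63 of the 84 members. The windows below run from 30 bases before to 20 bases after the annotated start, on the gene's strand. They are shown for the gene with the lowest ratio between the media (Rpl15), another low gene (Rpl35), and 2 paralog pairs whose members differ in ratio. Capitals mark the longest run of at least 5 pyrimidines (C or T) that reaches within 5 bases of the annotated start. Not all low genes had a long run: Rps28 and Rplp0, not shown, had none, and Rpl27 had a run of 5 bases.
Rpl15 (chr14:18270967-18271016, minus strand): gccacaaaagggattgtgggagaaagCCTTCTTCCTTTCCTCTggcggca
Rpl35 (chr2:39005112-39005161, minus strand): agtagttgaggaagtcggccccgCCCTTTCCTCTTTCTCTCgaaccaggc
Rps27 (chr3:90213629-90213678, minus strand): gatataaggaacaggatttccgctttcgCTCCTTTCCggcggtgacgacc
Rps27l (chr9:66946056-66946105, plus strand): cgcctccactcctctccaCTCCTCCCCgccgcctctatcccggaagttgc
Rpl36a (chrX:134585624-134585673, plus strand): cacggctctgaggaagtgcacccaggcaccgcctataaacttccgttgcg
Rpl36al (chr12:69184048-69184097, minus strand): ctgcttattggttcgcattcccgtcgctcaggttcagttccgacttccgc

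A run of at least 5 pyrimidines near the start was found in 35 of the 63 members (55.6%) and in 35.2% of 17999 genes of the table with a promoter entry. Runs of at least 10 were found in 18 members (28.6%) and in 5.88% of all those genes. The search used the transcribed strand's letters only, and a gene with several entries was counted by its longest run. Annotated starts can lie away from the base where transcription begins, so a missing run says only that these letters are not in this window. Among measured members, the 34 with a run had a median log2 ratio between the media of -0.50 and the 26 without a run -0.49.

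Ribosomal protein transcripts took a smaller share of the UMIs in induction medium. The 84 members held 9632547 of the expansion library's UMIs, 32.8% (exact Clopper-Pearson interval 32.76 to 32.79), and 2054687 of the induction library's, 22.3% (22.30 to 22.36), a log2 ratio of -0.55 (induction over expansion). The median cell held 7455 ribosomal protein UMIs in expansion and 1400 in induction, a 5.33-fold gap, while its UMIs of all other genes were 15602 and 5329, a 2.93-fold gap. Among the 100 most abundant genes of each library, 71 were members in expansion and 59 in induction. The gap in UMIs per cell between the libraries can come from sequencing depth or from RNA content, which these files cannot tell apart. Among cells of 10000 to 20000 UMIs only (386 and 223 cells), the shares were 31.8% and 24.6%, a log2 ratio of -0.37. This window can also change the mix of cells. In induction, the clusters numbered 4 and 5 below had the highest median UMIs per cell, and their shares were 32.1% and 24.6%. The part of this mix in the ratio was not tested.

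Both subunits had similar ratios. Small subunit genes held 13.96% of UMIs in expansion and 9.58% in induction (log2 ratio -0.54), and large subunit genes 18.8% and 12.8% (-0.56). Within the ribosomal protein UMIs, small subunit genes made up 42.6% and 42.9%. The order of the genes by level was largely kept, with a Spearman rho of 0.93 over the 81 measured members, which share the same 2 libraries. Rpl41, the smallest ribosomal protein of the large subunit, was the most abundant member in both libraries, at 12930 and 7837 CPM. Each UMI stands for 1 molecule whatever the transcript's length, so these levels are not divided by length.

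Of the 81 measured members, 79 were lower in induction medium with an interval excluding a ratio of 1, against 18.6% of the 7220 genes of the table that reached 10 CPM. The other two, Rps27l and Rpl36al, had intervals just above a ratio of 1 (background 50.8%). Both lay below it in the cells that held Xist, and also when scaled to the median gene. At least 1.5-fold lower were 28 members (34.6%; background 7.17% of all measured genes), of which 10 belong to the small and 18 to the large subunit. At least 2-fold lower were 9 members (11.1%; background 3.17%), and no member was 1.5-fold or 2-fold higher (backgrounds 21.1% and 9.17%). The median log2 ratio of the members was -0.49, against 0.21 for all measured genes and 0.16 for the 80 other genes of at least 1000 CPM. The median gene, taken over genes that had 50 UMIs or more in each library, stood at 0.22. Relative to it, 71 members were at least 1.5-fold lower (background 11.8%) and 12 at least 2-fold lower (background 4.67%), while 0 were 1.5-fold or 2-fold higher (backgrounds 13.1% and 6.65%).

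**Figure D1:**
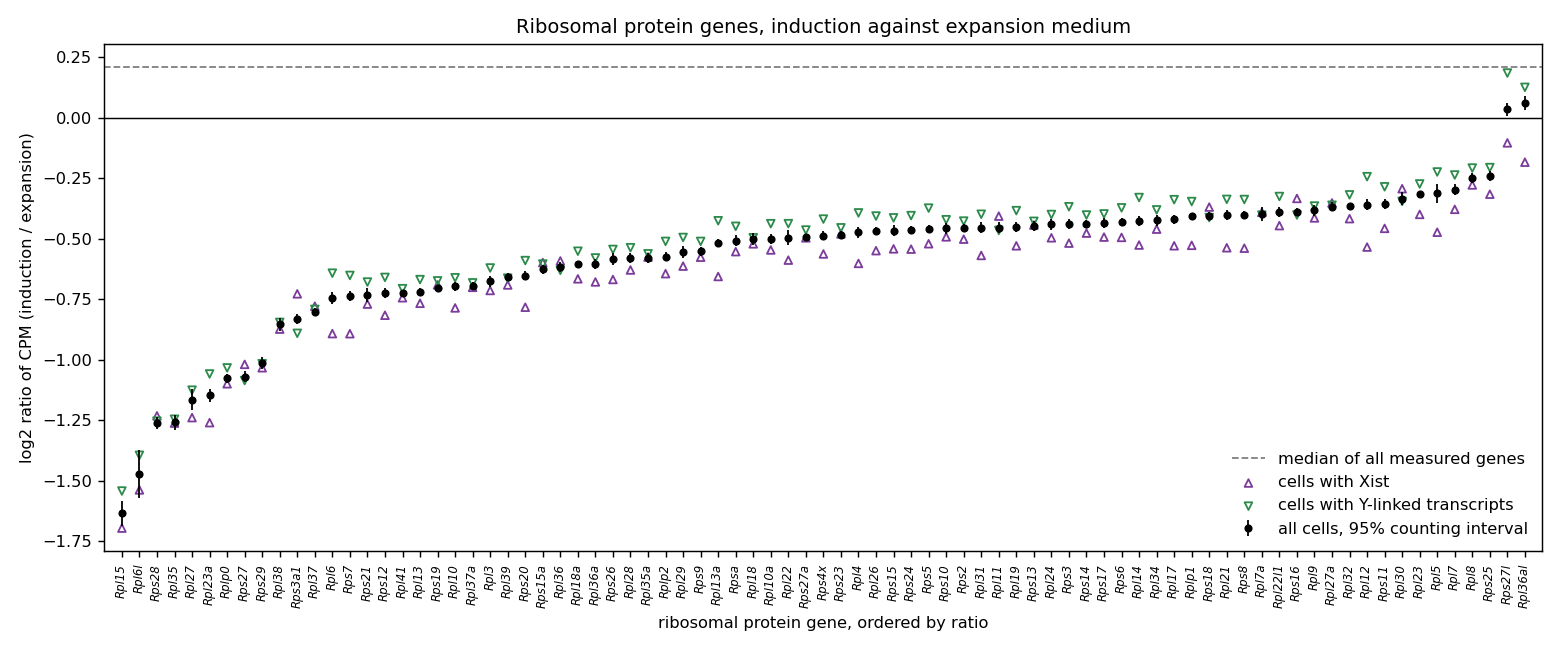
Log2 ratio of CPM, induction over expansion, for the 81 measured ribosomal protein genes, ordered by ratio. Black points are all cells with 95% counting intervals, triangles are cells with Xist (up) and with Y-linked transcripts (down), and the dashed line is the median of all measured genes at 0.21; Rps27l and Rpl36al, at the right end, are the 2 black points above 0.

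The 9 members at least 2-fold lower were Rpl15, Rpl6l, Rps28, Rpl35, Rpl27, Rpl23a, Rplp0, Rps27 and Rps29. Rpl15, a core protein of the large subunit (GRCm38 chromosome 14, 18267823 to 18271391), stood at 1177 CPM in expansion and 379 CPM in induction, 3.10-fold lower (log2 ratio -1.63, interval -1.68 to -1.58). Its ratio was -1.70 among Xist cells and -1.54 among cells with Y-linked transcripts. Rpl35 and Rpl23a, which sit at the exit of the tunnel through which the new protein leaves the ribosome, had pairs of levels of 2547 and 1064 CPM (Rpl35) and of 2863 and 1293 CPM (Rpl23a). Rpl27, also of the large subunit, stood at 1232 and 550 CPM, a log2 ratio of -1.16. Rpl35 lies on chromosome 2 from 39001580 to 39005624 and Rpl23a on chromosome 11 from 78180932 to 78183584.

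On the small subunit, the zinc-binding proteins Rps27 and Rps29 had levels of 4197 and 2001 CPM (Rps27) and of 3761 and 1865 CPM (Rps29). Rps28 was further apart, at 3855 CPM in expansion and 1610 CPM in induction (log2 ratio -1.26). It ranked as the 38th most abundant member in expansion and as the 69th in induction. Rpl6l (272 and 98.1 CPM), a gene model similar to Rpl6, had the lowest level of the measured members. The gene models of Rpl15, Rps28, Rpl35 and Rpl23a overlap other genes of the table (Nkiras1 for Rpl15, Kank3 for Rps28, Arpc5l and Wdr38 for Rpl35, Tlcd1 for Rpl23a). Those of Rps25, Rps27a and Rpl5, described next, also overlap other genes. Overlap was taken from coordinates on either strand, and whether any UMIs are shared was not tested.

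The stalk proteins recruit translation factors to the ribosome, and their ratios differed. Rplp0, the stalk's base, stood at 6445 CPM in expansion and 3056 CPM in induction (log2 ratio -1.08, interval -1.09 to -1.06). Its partners were closer between the media, Rplp2 at 3986 and 2679 CPM (-0.57) and Rplp1 at 7372 and 5565 CPM (-0.41). The intervals of these 3 ratios do not overlap.

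Other members with well-known roles spread around the members' median of -0.49 (quartiles -0.70 and -0.42). Rps6, the substrate of the S6 kinases below mTOR, stood at 4813 and 3569 CPM (log2 ratio -0.43). Rps19, whose loss causes Diamond-Blackfan anaemia in people, stood at 9292 and 5707 CPM (-0.70). Rps27a, which is made as a fusion with ubiquitin, stood at 6282 and 4463 CPM (-0.49). Rpl5 and Rpl11, which together bind the p53 regulator Mdm2, had levels of 935 and 753 CPM for Rpl5 (-0.31) and of 3291 and 2404 CPM for Rpl11 (-0.45). The smallest gaps among the 79 lower members belonged to Rps25 (2972 and 2516 CPM, -0.24) and Rpl8 (3088 and 2599 CPM, -0.25), a protein near the catalytic centre of the large subunit.

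Set against the members' own total, most genes had a similar part of the ribosomal protein pool in both media. Within the pool, 6 members were at least 1.5-fold lower in induction (Rpl15, Rpl6l, Rps28, Rpl35, Rpl27 and Rpl23a). The background was 2.74% of all measured genes, set against the same total. At least 1.5-fold higher were 2 members, Rps27l and Rpl36al, a far smaller share than the background of 64.5%. The others passed neither threshold. Rpl15 made up 0.359% of ribosomal protein UMIs in expansion and 0.170% in induction. It was the only member past 2-fold on this scale (background 1.55% lower). Rps28 made up 1.18% and 0.721%, and Rpl35 0.777% and 0.477%. Over the 81 members, log2 ratios from Xist cells and from Y-linked cells had a Spearman rho of 0.87, the cells of each kind coming from the same 2 libraries.

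Genes that share a near-identical stretch with a member, called copies here, bear on these values. For 71 of the 81 members, at least 1 other GENCODE M21 gene matched the last 300 bases of a transcript at 95% identity or more over at least 90 bases, and for 28 members such a copy is itself in the gene table, among them all 6 members that were lower within the pool. Rps27l and Rpl36al had none in the table. Adding the UMIs of the copies left the ratios of Rpl15, Rps28, Rpl35, Rpl27 and Rpl23a at -1.64, -1.27, -1.29, -1.19 and -1.20, and brought Rpl6l, added to Rpl6, to -0.80. Members with a copy in the table had a median log2 ratio of -0.60 and members without one -0.46. The split of UMIs between a member and its copies is uncertain, and its part in the ratios was not tested.

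Among paralog pairs, the share of the variant gene differed between the media for Rps27, Rpl36a and Rpl6 and was close for Rpl22. It was higher in induction for Rps27 and Rpl36a, and lower for Rpl6. Rps27l, a paralog of Rps27 and a known p53 target (chromosome 9, 66946086 to 66949516), stood at 1572 CPM in expansion and 1612 CPM in induction (log2 ratio 0.04, interval 0.01 to 0.06). It made up 27.2% of the pair's UMIs in expansion (exact binomial interval 27.0 to 27.5) and 44.6% in induction (44.1 to 45.2). The direction was shared by cells with Xist (29.1% and 43.7%) and cells with Y-linked transcripts (25.6% and 45.3%). Its pyrimidine run, shown above with that of Rps27, is as long as the latter's, at 9 bases.

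Rpl36al, on chromosome 12 from 69182731 to 69184083, stood at 1350 and 1409 CPM, and its X-linked counterpart Rpl36a at 3667 and 2413 CPM. Rpl36al made up 26.9% of this pair in expansion and 36.9% in induction. Rpl22l1 outnumbered Rpl22, the RNA-binding paralog it resembles, in both media, with 68.3% and 69.9% of the pair (3253 and 2486 CPM for Rpl22l1, 1508 and 1070 CPM for Rpl22). Rpl6l made up 9.44% of its pair with Rpl6 in expansion (interval 9.24 to 9.64) and 5.92% in induction (5.55 to 6.31). Xist cells had 9.39% and 6.22%, and Y-linked cells 9.62% and 5.94%. Rpl6 is itself the near-identical copy matched to Rpl6l, so the split of UMIs within this pair is uncertain. The intervals do not cover that uncertainty. The variants Rpl10l, Rpl39l and Rpl3l, known from testis and muscle, had only the few or no UMIs given above.

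Single cells differed widely in their share of ribosomal protein transcripts. After each cell was thinned to 2000 UMIs, a depth that 0 expansion and 14 induction cells did not reach, the share ran from 15.4% to 70.7% in expansion, with a median of 32.6% and quartiles of 27.1% and 37.5%. In induction it ran from 2.20% to 43.1%, with a median of 21.4% and quartiles of 17.1% and 25.6%. The distributions overlapped: 67 induction cells (5.44%) lay above the expansion median and 69 expansion cells (5.79%) below the induction median. Counting alone would give an SD of 1.05 percentage points in expansion and 0.919 in induction, and the measured SDs were 6.93 and 6.60. As counted, without thinning, the medians were 32.5% and 21.4% and the SDs 6.86 and 6.62. Relative to the mean, cells were more spread in induction, with a CV of 30.6% against 21.4%.

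**Figure D2:**
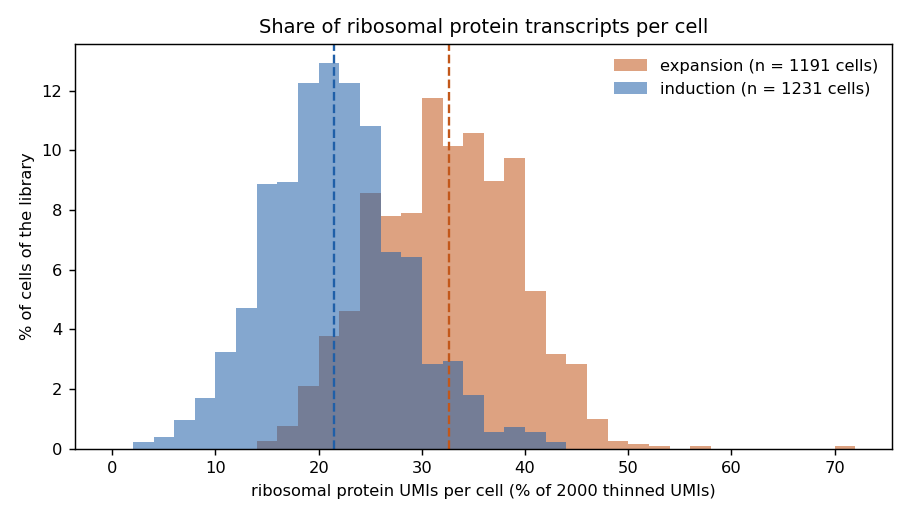
Histogram of the share of ribosomal protein UMIs per cell after thinning to 2000 UMIs, in bins of 2 percentage points, as percent of the cells of each library (1191 expansion and 1231 induction cells). Dashed lines are the medians of 32.6% and 21.4%.

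Small and large subunit UMIs varied together from cell to cell, with a Spearman rho over thinned cells of 0.93 in expansion and 0.94 in induction. These are descriptions over cells that share a library, and the other lists below were taken as shares of the UMIs outside the members. The share ran against the 24 secreted hepatocyte proteins (-0.57 and -0.52). It was weakly related to the mitochondrially encoded genes (0.12 and -0.08) and to the cell's total UMIs before thinning (0.12 and 0.20). Ribosome biogenesis genes, at a median of 5 UMIs per thinned cell, gave 0.46 and 0.37.

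Clusters made without ribosomal protein and mitochondrial genes differed in this share in both libraries, and are given here by number and leading genes. In expansion, the highest share was in cluster 4 (35 cells, led by S100a6, Hmga2, Gm12603, Axl and Pmm1), at 40.2% of UMIs, and the lowest in cluster 6 (123 cells, led by the acute phase genes Saa2, Orm1, Saa1 and Orm2 and by Ang), at 24.7%. Induction had the same kinds of genes at both ends. Cluster 4 (90 cells, led by Sprr1a, Serpine2, S100a6, Hmga2 and Anxa3) reached 32.1%, and cluster 7 (243 cells, led by Saa1, Orm1, Serpina3m, Serpinc1 and Fbp1) 15.6%. Secreted hepatocyte proteins took 1.34% of the UMIs of expansion cluster 4 and 12.03% of cluster 6, and 4.39% and 17.98% of induction clusters 4 and 7. With the 50 most abundant other genes taken out of the total, these 4 shares were 46.5%, 36.1%, 38.9% and 24.0%. On that scale expansion cluster 4 was no longer the highest, since clusters 5 (48.3%, led by Tuba1a) and 8 (47.5%, led by Ung) stood above it. The lowest cluster of each library and the highest of induction were the same on both scales.

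**Figure D3:**
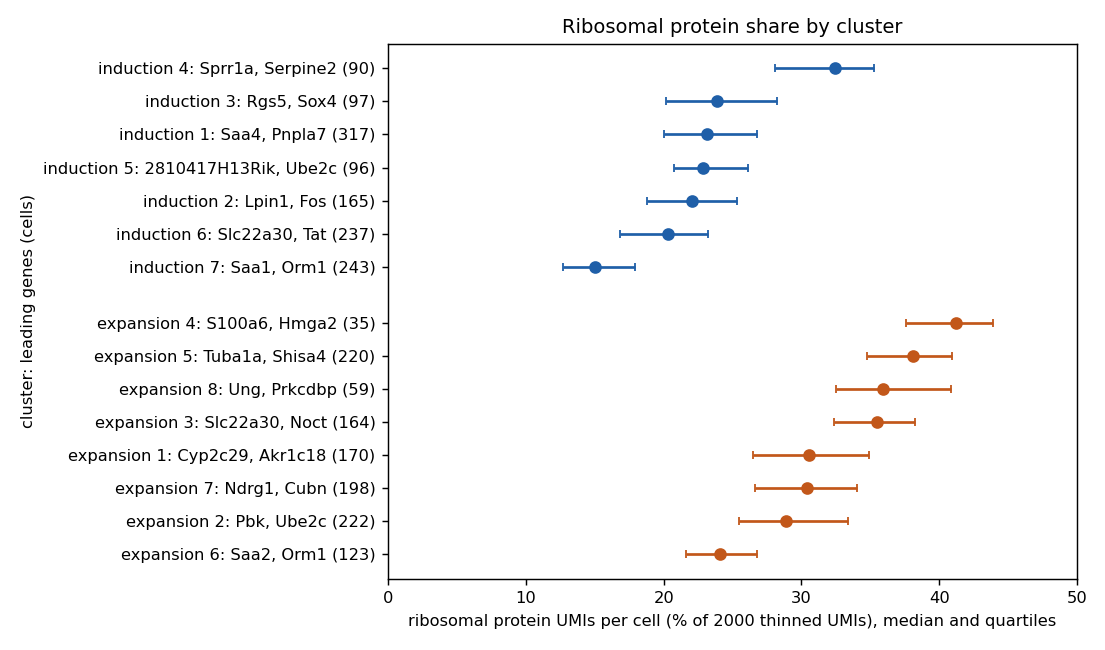
Share of ribosomal protein UMIs per cell after thinning to 2000 UMIs, as median and quartiles for each cluster of the 2 libraries, with the 2 leading genes and the number of cells. The cluster led by S100a6 and Hmga2 is the highest in expansion and the cluster led by Sprr1a and Serpine2 the highest in induction, and the clusters led by Saa and Orm genes are the lowest in both.

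The gap between the media was present in each kind of cell looked at, and narrower in cells with G2/M transcripts. Cells with at least 2 G2/M genes after thinning had shares of 30.8% (155 cells) and 25.2% (78 cells), a log2 ratio of -0.29, and the other cells 33.1% and 22.1% (-0.59). Cells with G2/M transcripts thus stood below the other cells in expansion and above them in induction, without a test of that difference. Xist cells had shares of 35.1% and 23.1%, while those of Y-linked cells were 31.8% and 22.3%. The clusters led by Slc22a30, in which 87.2% of expansion and 97.0% of induction cells held Xist without Y-linked transcripts, stood at 35.1% and 20.2%.

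Genes whose part of the pool differed between the media varied in different ways within a library. The part of Rpl15 in the ribosomal protein UMIs lay between 0.337% and 0.380% in the 8 expansion clusters and between 0.163% and 0.187% in the 7 induction clusters. Rpl35 lay between 0.691% and 0.829% and between 0.449% and 0.496%. For both genes the clusters of 1 library thus sat close together and apart from those of the other. Rps27l behaved otherwise: its part ran from 0.342% to 0.650% over expansion clusters and from 0.561% to 0.925% over induction clusters, ranges that overlap. Rpl36al ran from 0.283% to 0.552% and from 0.405% to 0.886%. Over the 81 measured members, the highest cluster exceeded the lowest by a median of 1.19-fold in expansion and 1.22-fold in induction, against 1.90-fold and 1.65-fold for Rps27l.

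**Figure D4:**
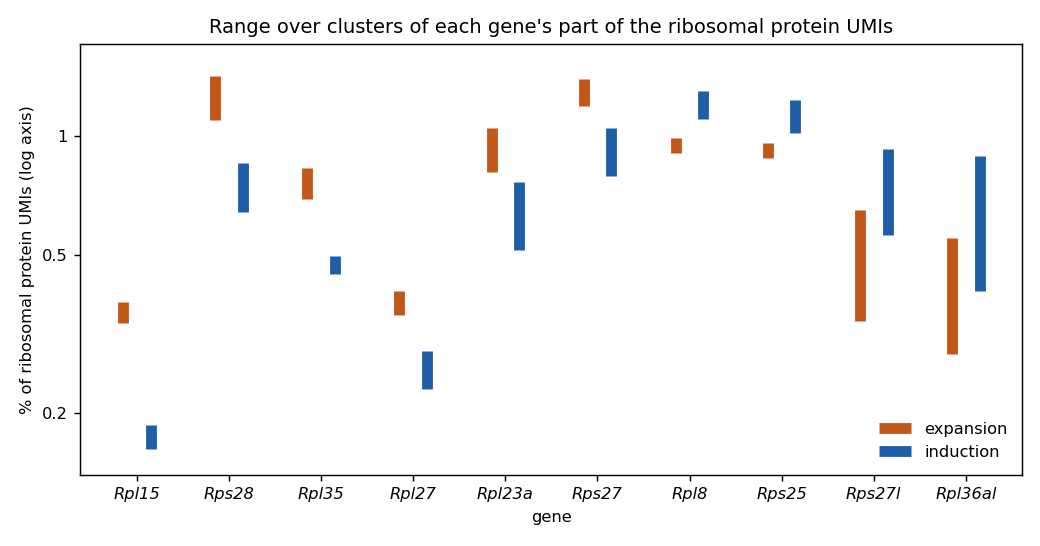
Part of each gene in the ribosomal protein UMIs (percent, log axis), drawn as the range from the lowest to the highest cluster, for 8 expansion clusters and 7 induction clusters. The ranges of Rpl15, Rps28, Rpl35, Rpl27, Rpl23a, Rps27, Rpl8 and Rps25 do not overlap between the libraries, and those of Rps27l and Rpl36al do. The genes drawn were picked near both ends of the ratios between the media, so they do not stand for all members. Rps29, a low gene not drawn, has overlapping ranges (0.914% to 1.34% in expansion and 0.598% to 0.961% in induction).

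The spread of single members between cells was read in 2 ways, which order members and other genes differently. The CV beyond counting (the square root of the variance minus the mean, over the mean, of thinned UMIs) had a median over members of 25.1% in expansion and 34.2% in induction. Over all genes with at least 0.2 thinned UMIs per cell, 993 and 1183 of them, the medians were 37.6% and 47.9%. The variance over the mean (Fano factor), which is 1 for pure counting and grows with the level, had a median over members of 1.46 in expansion and 1.63 in induction, against 1.09 and 1.12 over all those genes. It exceeded 1.5 in 44.4% of members and 12.6% of all those genes in expansion, and in 63.8% and 18.3% in induction. Members are more abundant, with a median of 7.47 thinned UMIs per cell in expansion against 0.402 over all those genes, and no comparison was made with genes of the same level. Of the 80 members past that level in both libraries, 79 had the larger value in induction, as did 69.8% of all 900 such genes. Rpl5 was the exception at this depth (28.0% and 18.6%), but with cells thinned to 4000 UMIs it stood at 24.6% and 26.9%. Rps27l had the largest value of the members in both libraries (40.6% and 49.6%), and it also did at 4000 UMIs (39.4% and 50.6%). Among the lowest were Rpl27 (15.8% and 20.1%) and Rpl38 (16.9% and 18.4%). Rps12 stood at 23.3% and 46.0%, and at 27.2% and 40.3% with 4000 UMIs.

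**Figure D5:**
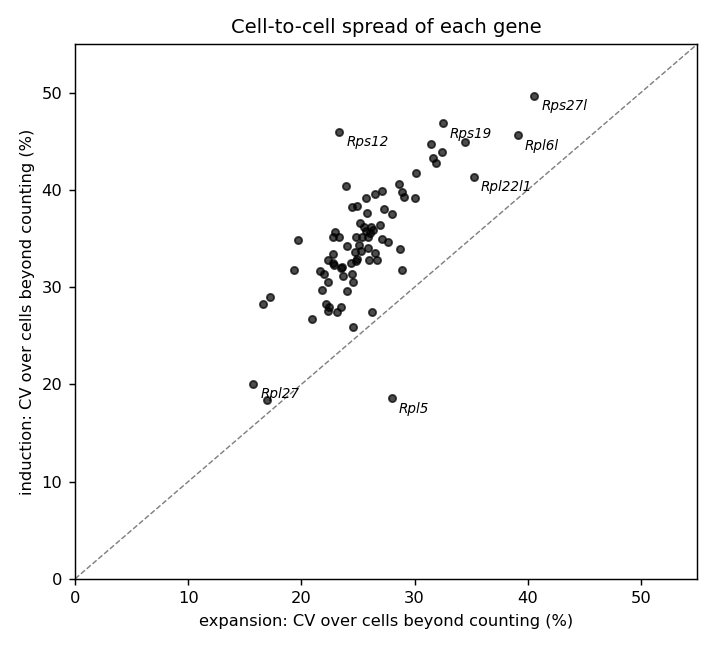
CV over cells beyond counting error, in percent, for each measured ribosomal protein gene after thinning to 2000 UMIs, expansion on the x axis and induction on the y axis, with the line of equal values dashed. Most points lie above the line; Rps27l is highest on both axes and Rpl5 lies below the line at this depth, though not at 4000 UMIs.

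Among other genes of translation, the TOP mRNAs were mostly lower in induction, as the members were. The mitochondrial ribosomal protein, initiation factor and biogenesis lists had medians of 0.22, 0.10 and 0.02, against 0.21 for all measured genes. Fau, a small subunit gene fused to a ubiquitin-like protein, stood at 3837 and 2660 CPM (log2 ratio -0.53), near the members. Of 17 measured other TOP mRNAs, 15 had an interval below a ratio of 1 (background 18.6%) and 1 above it (background 50.8%). At least 1.5-fold lower were 2 of them (background 7.17%), and their median was -0.36. The elongation factor Eef1a1 stood at 7121 and 5772 CPM (-0.30), Hnrnpa1 at 286 and 179 CPM (-0.68), and Tpt1, the exception above, at 5789 and 6629 CPM (0.20). The 73 measured mitochondrial ribosomal protein genes, whose ribosome translates mitochondrial mRNAs, had a median of 0.22, close to the 0.21 of all measured genes. Of them, 6 were at least 1.5-fold higher, a smaller share than the background of 21.1%, and 0 were lower (background 7.17%). Mrpl38 stood at 426 and 620 CPM and Mrpl50 at 39.6 and 74.9 CPM.

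The 25 initiation factors had a median log2 ratio of 0.10, with 1 at least 1.5-fold higher, Eif1a (69.4 and 120 CPM; background 21.1%), and 0 lower (background 7.17%). The 36 measured ribosome biogenesis genes had a median of 0.02, with 1 at least 1.5-fold higher and 2 lower, against the same backgrounds. By interval alone, 9 of these genes were higher (background 50.8%) and 8 lower (background 18.6%). Among them, the nucleolar chaperone Npm1 stood at 1298 and 803 CPM (-0.69) and Nop10, of the pseudouridylation complex, at 303 and 494 CPM (0.71). Of 18 measured genes of mTOR signalling and LARP proteins, 6 stood 1.5-fold or more higher (background 21.1%) and 0 lower, with a median of 0.41. The mTOR inhibitors Deptor (17.2 and 56.5 CPM, 1.72) and Ddit4 (16.4 and 34.9 CPM, 1.09) were furthest apart, and Larp1, the TOP-binding protein, stood at 84.8 and 69.8 CPM (-0.28). These are transcript levels and say nothing of kinase activity or of translation. Outside translation, 13 of the 24 secreted hepatocyte protein genes were at least 1.5-fold higher (background 21.1%) and 1 lower, and 6 of 10 measured G2/M genes were at least 1.5-fold lower (background 7.17%).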

How the data were processed

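The deposited tables give raw UMI counts for every gene in every barcode. Per the submitters' processing notes, the authors used Cell Ranger 2.1.1 with the mm10 genome. For the annotation release and cell calling, settings were not given in the sources used here. Cells with under 500 genes or over 25% mitochondrial UMIs were left out (17 expansion, 30 induction). Counts were summed per library and divided by its total (CPM). Ratios carry exact conditional binomial intervals, and a gene was called at 1.5-fold or 2-fold with an interval excluding 1, among genes of at least 10 CPM in the higher library. With 1 library per medium no test was made. Members and lists were chosen with earlier results of these data known. Any member could be named, with Fau, and per list the most abundant gene and those with the largest ratios; a gene of these lists is not reported here. Copies, overlaps and cells of 10000 to 20000 UMIs were looked at after seeing the data. Cells were thinned without replacement (fixed seed). Doublets were kept; Scrublet marked 4 and 2 cells. Clusters used scanpy 1.11.5 (Leiden, resolution 0.6, 2000 variable genes, 20 components, 15 neighbours). Cells with Xist had no UMI of Ddx3y, Eif2s3y, Kdm5d and Uty, and cells with Y-linked transcripts no Xist UMI. Coordinates are GENCODE M21 (GRCm38); copies were found with blastn 2.17.0. The ratio and thinning code was tested on simulated counts. Versions were scipy 1.17.1, numpy 2.4.6, pandas 2.3.3 and Python 3.11.15.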

Additional observations from a re-analysis of the deposited data

Results flagged for a closer look

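Of the 81 measured members, 2 had ratios of opposite sign in Xist cells and in cells that held Y-linked transcripts, with both counting intervals on their side of a ratio of 1. Rps27l had a log2 ratio (induction over expansion) of -0.10 in Xist cells and 0.19 in cells with Y-linked transcripts. Rpl36al had -0.18 and 0.13. All 4 values are under 1.5-fold, and the difference between the 2 kinds of cells was not tested.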

How the results depend on the processing

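The share of ribosomal protein UMIs was lower in induction under each alternative run. Its log2 ratio was -0.56 without a cell filter, -0.53 with at least 1000 genes and at most 10% mitochondrial UMIs, -0.55 without mitochondrial genes, -0.77 scaled to the median gene, -0.50 without the 50 most abundant other genes, -0.59 with equal weight for every cell, -0.59 after thinning to 2000 UMIs, -0.60 in cells with Xist, -0.51 in cells with Y-linked transcripts, -0.59 in cells without G2/M transcripts and -0.37 in cells of 10000 to 20000 UMIs. The members' median log2 ratio was -0.71 scaled to the median gene, -0.43 without the 50 most abundant other genes, -0.55 in cells with Xist and -0.33 in cells of 10000 to 20000 UMIs. At least 1.5-fold lower were 71 members scaled to the median gene (background 11.8% of all measured genes). In cells of 10000 to 20000 UMIs, 16 were lower (background 7.76%) and 1, Rps27l, was higher (background 19.9%). Over the sum of all members, 6 were lower (background 2.74%) and 2 higher (background 64.5%). On that last scale, 1 was at least 2-fold lower (background 1.55%). The causes were not tested. The CV of the share over cells was 23.1% and 32.2% (expansion and induction) without a cell filter, 20.5% and 27.6% with the stricter filter, and 17.4% and 32.0% in cells with Xist; thinned to 4000 UMIs, which left out 149 induction cells, it was 28.8% in induction. The members' median CV beyond counting was 24.7% and 32.3% at 4000 UMIs. No paired analysis was possible because each medium has 1 library. Levels of the 81 measured members rest on at least 903 UMIs per library, so counting error is small beside the missing replicate spread.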

Other observations

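Genes matched by sequence to the members, called copies here, had a lower median ratio than the members themselves. The gene table lists genes that are no members but met the sequence rule given above, a match to the end of a member's transcript. They were found after the ratios had been seen, and 31 of them reached 10 CPM. In induction medium, 30 of these were 2-fold or more lower (background 3.17% of all measured genes), and their median log2 ratio was -1.54, against -0.49 for the members. Together they held 0.858% of UMIs in expansion and 0.337% in induction. Gm8730, a copy of Rplp0, stood at 2300 and 1007 CPM (log2 ratio -1.19), Gm10073, a copy of Rplp1, at 743 and 318 CPM (-1.22), and Rps12-ps3 at 657 and 228 CPM (-1.53). Rps27rt, a copy of Rps27, stood at 530 and 179 CPM, and its ratio was alike in Xist cells (-1.59) and in cells with Y-linked transcripts (-1.53). So 30 of the 229 genes of the table that were at least 2-fold lower met this sequence rule, and 9 are members. Among the 30 is Wdr89, whose symbol is not that of a ribosomal protein gene. It was matched to Rplp2 and stood at 545 and 209 CPM (log2 ratio -1.38). The rule asks for a match of at least 90 bases only, so a matched gene need not be a copy of the whole member. How reads were shared between members and copies was not tested.

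Members on the X chromosome took similar parts of the ribosomal protein UMIs whether cells held Xist or Y-linked transcripts (given in that order below). Rps4x made up 1.51% and 1.49% in expansion and 1.55% and 1.59% in induction, and Rpl36a 1.12% and 1.12% in expansion and 1.06% and 1.07% in induction. Rpl39 made up 1.88% and 1.95% in expansion and 1.77% and 1.75% in induction. Rpl10 was somewhat lower in Xist cells, with 1.58% and 1.698% in expansion and 1.39% and 1.53% in induction.

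Several other members differed more between these cells, and in the same direction in both media. Rplp0 and Rpl36al are given here, and Rpl22l1, Rps7, Rps29, Rpl29 and Rpsa were also among them. Not every member kept its direction. Rpl12 made up 0.754% in Xist cells and 0.722% in cells with Y-linked transcripts in expansion, and 0.791% and 0.869% in induction. Rplp0 made up 2.28% of the ribosomal protein UMIs in Xist cells and 1.79% in cells with Y-linked transcripts in expansion, and 1.62% and 1.25% in induction. Rpl36al went the other way, with 0.361% and 0.438% in expansion and 0.483% and 0.681% in induction.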
